A study of Saccharomyces cerevisiae with 12 samples.

Results

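The region described here comprises nucleotides 1001 to 1870 of the yeast 25S rRNA, which span the end of domain II and domain III of the large subunit. It was chosen by position alone and holds 870 of the 3396 nucleotides of the 25S rRNA, out of 5196 nucleotides in the 18S and 25S rRNAs together. The authors' site list places 4 of its 55 2′-O-methylated sites here, A1133, C1437, A1449 and G1450, and 37 of the 55 lie in the 25S rRNA. Positions are counted from the 5′ end of the mature 25S rRNA (RDN25-1), as the deposited tables give them.

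RiboMeth-seq (RMS) was performed on total RNA from 12 libraries of a Saccharomyces cerevisiae complementation system, 3 from each of 4 strains that were all in exponential growth. Dbp7 is a DEAD-box RNA helicase that acts in the nucleolus on early precursors of the large subunit. The first group, Δdbp7 + EV, lacked the DBP7 gene and carried an empty low-copy plasmid, and its reference, WT + EV, was the wild-type strain with the same empty plasmid. The third group, Δdbp7 + Dbp7DQGD, was the deletion strain with a plasmid for catalytically inactive Dbp7 (a glutamate to glutamine substitution in the helicase motif), and its reference, Δdbp7 + Dbp7WT, carried the plasmid for wild-type Dbp7, both from the gene's own promoter and terminator. The deletion strains rest on a strain of a deletion collection, and strains without active Dbp7 grow more slowly, so growth rate divides the libraries in the same way as Dbp7 activity and cannot be told apart from it.

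A methyl group on the 2′ oxygen of the ribose protects the adjacent phosphodiester bond from alkaline hydrolysis, so a methylated nucleotide gives few read ends compared with its neighbours. In yeast most of these methyl groups are added by box C/D small nucleolar ribonucleoproteins, in which a small nucleolar RNA (snoRNA) base pairs with the pre-rRNA and fibrillarin (Nop1) transfers the methyl group. The snoRNA snR61 guides methylation of A1133, and U24 (SNR24, encoded in an intron of ASC1) guides that of C1437, A1449 and G1450. The end of domain II carries the GTPase-associated centre at the base of the ribosomal stalk, and domain III binds uL23 near the exit of the polypeptide tunnel. The levels of snR61 and U24 were not analysed here.

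The 4 methylated sites fall into 2 short segments, which are printed because all calls on methylation in the region concern them. In both runs the listed nucleotides are in capitals, and the first run also has G1142 in capitals, the nucleotide outside the list with the highest score.
25S 1121-1154: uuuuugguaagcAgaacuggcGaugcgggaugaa
25S 1425-1462: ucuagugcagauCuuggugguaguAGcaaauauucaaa
G1142 lies 9 nt after A1133, and A1449 lies 12 nt after C1437 and directly before G1450. The rest of the region is free of listed sites. Nucleotides 1451 to 1870, 420 in number, belong to a stretch of 437 nt up to U1888 that is the longest gap between listed sites in the 25S rRNA, and the 303 nt between A1133 and C1437 are the third longest.

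Sequencing depth allowed every nucleotide of the region to be scored. Libraries held 5580519 to 23549872 read ends in total, the median nucleotide of the region had 751 to 4112.5 ends per library, and no nucleotide was without ends. The shallower libraries were largely those without active Dbp7 (5580519 to 10361153 ends, against 8578561 to 23549872 with active Dbp7). The part of depth in the results below was not tested, and leaving out single libraries cannot separate it from Dbp7 activity. Scores are given on a scale from 0 (as many ends as the flanking nucleotides, or more) to 1 (no ends).

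All 4 listed sites were close to fully methylated in every strain, with scores between 0.907 and 0.984 in the 12 libraries. These high scores rest on 19 to 359 read ends per site and library. A1449 was the site that differed most between strains. Its score was 0.944, 0.941 and 0.934 in the Δdbp7 + EV libraries 1 to 3, against 0.976, 0.979 and 0.971 in the WT + EV libraries. In Δdbp7 + Dbp7DQGD it was 0.914, 0.944 and 0.928, against 0.968, 0.977 and 0.963 in Δdbp7 + Dbp7WT. All 6 libraries without active Dbp7 (0.914 to 0.944) thus lay below all 6 libraries with it (0.963 to 0.979), and the score was lower in 6 of 6 pairs of same-numbered libraries. Because the score is a mean over the rRNA of a culture, a small shift in all cells and a larger one in some of them cannot be told apart.

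**Figure D1:**
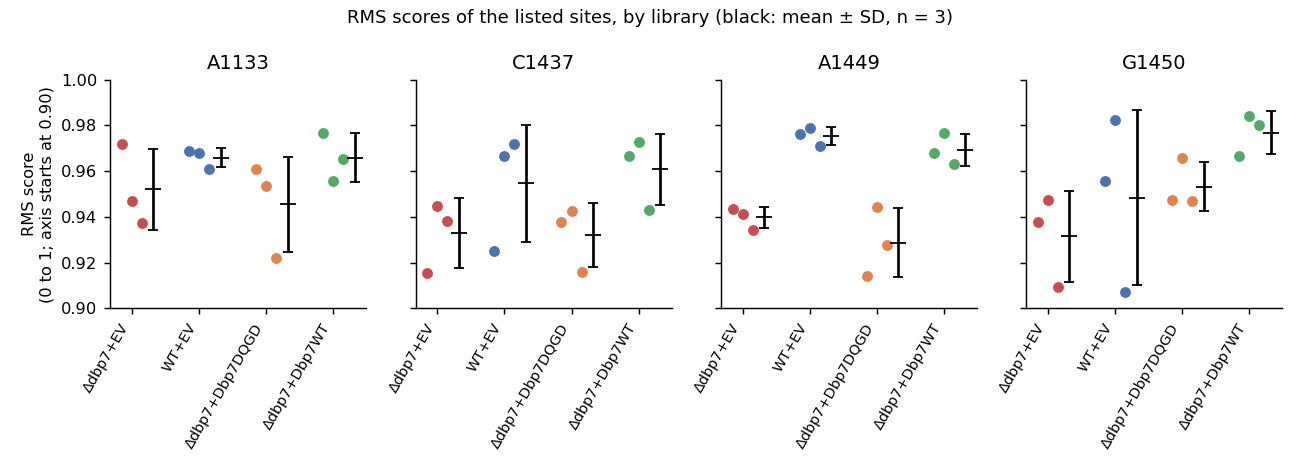
RMS score (0 to 1, axis from 0.90) at the 4 listed sites in each library, grouped by strain, with libraries 1 to 3 from left to right. Black bars give mean ± SD (n = 3). At A1449 the libraries without active Dbp7 reach at most 0.944 and those with it at least 0.963. At the other sites the libraries without and with active Dbp7 overlap.

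The mean score of A1449 was 0.940 ± 0.00475 in Δdbp7 + EV and 0.975 ± 0.00400 in WT + EV (SD, n = 3 each), a difference of -0.0357 ± 0.00801 (SE, adjusted p = 0.0272, limma). It was 0.929 ± 0.0151 in Δdbp7 + Dbp7DQGD and 0.969 ± 0.00696 in Δdbp7 + Dbp7WT (SD, n = 3 each), a difference of -0.0405 (adjusted p = 0.0296, limma). Over both pairs of strains, the difference between the libraries without and with active Dbp7 was -0.0381 ± 0.00567 (SE, adjusted p = 0.00166, limma). The changes on deletion and on inactivation were not distinguishable, with a difference between them of 0.00478 ± 0.0113 (SE, adjusted p = 0.998, limma). The counting error of a score at A1449 was 0.00214 to 0.00887 per library and leaves out the spread between cultures.

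The call at A1449 was 1 of 4 sites in each of these comparisons, and A1449 had a lower score in all of them. Over all 55 listed sites the share called was 9.09% for deletion, 10.9% for inactivation and 16.4% for both combined, so that 1 of 4 sites does not set the region apart. Set against WT + EV, Δdbp7 + Dbp7DQGD also had a lower score at A1449, by -0.0468 (adjusted p = 0.0123, limma; 16.4% of all sites called), and Δdbp7 + Dbp7WT differed by only -0.00628 (adjusted p = 0.904; 0% of all sites and 0 of 4 in the region called, with 0 of 4 at an unadjusted p under 0.05). These last comparisons set an empty-plasmid strain against strains with a DBP7 plasmid, whose same-numbered libraries did not deviate together, and no pairs could be used there.

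The call in either 3 against 3 comparison depended on single libraries. For deletion, A1449 had an adjusted p of 0.0674 to 0.129 when WT + EV library 1 or 2 or Δdbp7 + EV library 1 or 3 was left out, and for inactivation 0.0572 to 0.0761 without Δdbp7 + Dbp7DQGD library 1 or 3 or Δdbp7 + Dbp7WT library 1 or 2. Against WT + EV, the call for Δdbp7 + Dbp7DQGD was lost without WT + EV library 1 (adjusted p = 0.0655). The combined comparison kept the call whichever library was left out (adjusted p between 0.00101 and 0.00675).

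The 5′ and the 3′ ends of the reads can be scored apart. From 5′ ends alone, A1449 was called for deletion (-0.0381, adjusted p = 0.0211), for inactivation (-0.0439, adjusted p = 0.0107) and for both combined (-0.0410, adjusted p = 0.00149, limma). From 3′ ends alone the differences were -0.0330, -0.0353 and -0.0342, with adjusted p-values of 0.152, 0.128 and 0.0152 (limma), so that only the combined comparison was called. G1450 was also called from 5′ ends alone in each of these comparisons (-0.0237, -0.0259 and -0.0248, adjusted p = 0.0112, 0.00690 and 0.000711, limma), and C1437 for deletion and for both combined (-0.0394 and -0.0328, adjusted p = 0.0259 and 0.00874, limma). From 5′ ends, 30.9%, 25.5% and 41.8% of all 55 sites were called for deletion, inactivation and both combined, beside 3, 2 and 3 of 4 in the region, all lower. From 3′ ends the shares were 0%, 0% and 10.9%.

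Leaving the few ends of G1450 out of the flank of A1449 moved the mean score of A1449 to 0.946 ± 0.00437 in Δdbp7 + EV and 0.978 ± 0.00368 in WT + EV (SD, n = 3 each), and the site was still called in each comparison. On the scale of read ends, A1449 had 0.0658 ± 0.0117 ends for each end of the flanking mean in libraries without active Dbp7, against 0.0277 ± 0.00613 with active Dbp7 (SD, n = 6 each). The ends at A1449 were alike in number, 68 to 114 per library without active Dbp7 and 62 to 122 with active Dbp7. The flanking means did not overlap, at 1040 to 2044 without and 2148 to 5154 with active Dbp7. Depth at this site thus divided the libraries as Dbp7 activity did, and its part was not tested.

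Libraries with the same number deviated together within each pair of strains, as the scores of C1437 show. C1437, the first of the U24 targets, scored 0.916, 0.945 and 0.938 in Δdbp7 + EV, against 0.925, 0.967 and 0.972 in WT + EV. It scored 0.938, 0.943 and 0.916 in Δdbp7 + Dbp7DQGD, against 0.967, 0.973 and 0.943 in Δdbp7 + Dbp7WT. Library 1 was thus the lowest of both empty-plasmid strains and library 3 the lowest of both plasmid strains. The empty-plasmid strains overlapped, as did all libraries without and with active Dbp7. The plasmid strains narrowly did not, at no more than 0.9425 in Δdbp7 + Dbp7DQGD and no less than 0.9431 in Δdbp7 + Dbp7WT. The score was lower without active Dbp7 in 6 of 6 pairs.

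G1450, which directly follows A1449, scored 0.938, 0.947 and 0.909 in Δdbp7 + EV, against 0.956, 0.983 and 0.907 in WT + EV. It scored 0.947, 0.966 and 0.947 in Δdbp7 + Dbp7DQGD, against 0.966, 0.984 and 0.980 in Δdbp7 + Dbp7WT. Library 3 was the lowest of both empty-plasmid strains, and 5 of 6 pairs had the lower score without active Dbp7. A1133, the snR61 target, scored 0.972, 0.947 and 0.937 in Δdbp7 + EV, against 0.969, 0.968 and 0.961 in WT + EV, and 0.961, 0.953 and 0.922 in Δdbp7 + Dbp7DQGD, against 0.977, 0.956 and 0.965 in Δdbp7 + Dbp7WT. It was likewise lower in 5 of 6 pairs, with library 1 of the empty-plasmid strains as the exception.

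Without a term for the pairs, none of these 3 sites was called. Over both pairs of strains the difference was -0.0252 ± 0.0103 at C1437 (SE, adjusted p = 0.159), -0.0202 ± 0.0125 at G1450 (SE, adjusted p = 0.341) and -0.0171 ± 0.00852 at A1133 (SE, adjusted p = 0.243, all limma). With the pair as a block, C1437 was called for deletion (-0.0218 ± 0.00625, SE, adjusted p = 0.0360), for inactivation (-0.0287, adjusted p = 0.0135) and for both combined (adjusted p = 0.00330), and G1450 was called for both combined only (adjusted p = 0.0298, limma). A1449 was called with the block in each comparison, with adjusted p-values of 0.00520, 0.00456 and 0.000509. A1133 was not called (combined adjusted p = 0.0928, limma). The block thus gave 2, 2 and 3 of 4 sites called, all lower, beside a share of 30.9%, 29.1% and 38.2% of all listed sites. When any pair was left out of the combined comparison, the region had 2 to 3 calls, beside 29.1 to 38.2% of all listed sites. The 3 sites called with the block are the 3 that U24 guides. A test of whether they differ from A1133 was not run.

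The read ends of each nucleotide were then compared with the mean of its 12 nearest neighbours, weighted by distance, at all 870 nucleotides of the region, to find whether nucleotides outside the site list differed between strains. Without a block, no nucleotide of the region was called by edgeR in any comparison, and 0% of the 5172 nucleotides tested in both rRNAs were called. At an unadjusted p under 0.05, the region had 7 of its 870 nucleotides for deletion, 3 for inactivation, 10 for both combined, 55 for Δdbp7 + Dbp7DQGD against WT + EV and 41 for Δdbp7 + Dbp7WT against WT + EV. Over all 5172 nucleotides the counts, in the same order, were 67, 21, 85, 315 and 231. DESeq2 called 1 nucleotide of the region in the combined comparison (0.116% of all nucleotides called) and 1 for Δdbp7 + Dbp7DQGD against WT + EV (0.058%), A1449 in both. A1449 also had the smallest p of the region in 4 of the 5 comparisons, with log2 folds of 1.30 for deletion, 1.21 for inactivation, 1.26 for both combined (adjusted p = 0.0619, edgeR) and 1.54 for Δdbp7 + Dbp7DQGD against WT + EV. For Δdbp7 + Dbp7WT against WT + EV the smallest p belonged to G1658 (log2 fold -0.43, adjusted p = 0.956, edgeR).

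With the pair as a block, 3 nucleotides of the region had more read ends relative to the flanking mean without active Dbp7 in the combined comparison. These were A1449, U1056 and G1655, and no nucleotide was called with fewer. The share called over both rRNAs was 0.271% in that comparison, 0.058% for deletion and 0% for inactivation, and neither of the last 2 had a call in the region. At an unadjusted p under 0.05 these 2 had 77 and 41 of 870 nucleotides in the region, against 519 and 278 of all 5172. A1449 had a log2 fold of 1.26 ± 0.130 (SE, adjusted p = 0.00490, edgeR), or a 2.39-fold higher ratio of ends to the flanking mean. U1056 had a log2 fold of 0.37 ± 0.0489 (SE, adjusted p = 0.0133) and G1655 one of 0.48 ± 0.0792 (SE, adjusted p = 0.0415, edgeR).

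**Figure D2:**
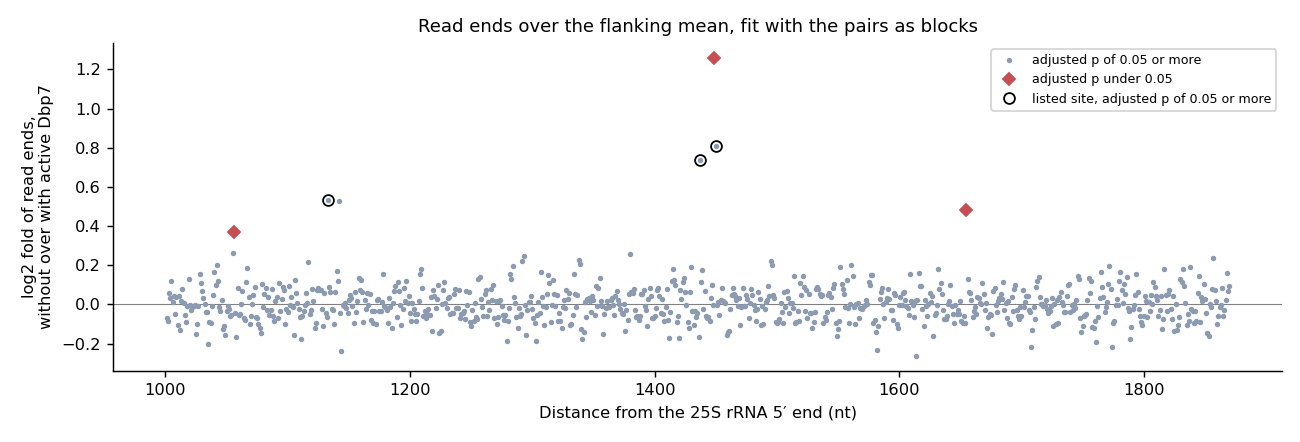
Log2 fold of read ends over the flanking mean, libraries without over libraries with active Dbp7, at each nucleotide of the region, from the fit with the pairs as blocks. Diamonds mark the 3 nucleotides called, of which A1449 has the highest log2 fold at 1.26, and open circles mark the other listed sites.

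Neither U1056 nor G1655 is a listed methylation site. U1056 is among the uridines of the end of domain II that are converted to pseudouridine by box H/ACA snoRNAs, and G1655 lies in domain III. Their surroundings are printed with the called nucleotide in capitals.
25S 1042-1070: ucucaaacuuuaaaUauguaagaaguccu
25S 1641-1669: uaacugaauguggaGacgucggcgcgagc
Both gave far more ends than the listed sites, with ends over the flanking mean no lower than 0.705 at U1056 and 0.550 at G1655 in any library.

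At U1056 the ends over the flanking mean were 1.13, 0.918 and 1.08 in Δdbp7 + EV, against 0.904, 0.705 and 0.816 in WT + EV. They were 1.17, 0.986 and 1.08 in Δdbp7 + Dbp7DQGD, against 0.836, 0.804 and 0.863 in Δdbp7 + Dbp7WT. All 6 libraries without active Dbp7 (0.918 to 1.17) lay above all 6 with it (0.705 to 0.904), and the difference was of like size for deletion (log2 fold 0.37 ± 0.0691, SE) and for inactivation (0.37 ± 0.0693, SE). U1056 rests on 828 to 1239 read ends per library without active Dbp7 and 1118 to 4073 with active Dbp7. The flanking means did not overlap here either, at 768 to 1257 without and 1370 to 4504 with active Dbp7. Raw counts from libraries of such unequal depth do not show whether the ends at U1056 rose. Depth divided the libraries at U1056 as Dbp7 activity did, and its part was not tested. Its 5′ neighbour at position 1055 had a log2 fold of 0.26 (adjusted p = 0.371, edgeR), and the nucleotides from 1057 to 1062 lay between -0.17 and 0.09.

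At G1655 the ends over the flanking mean were 0.952, 1.04 and 0.944 in Δdbp7 + EV, against 0.694, 0.604 and 0.749 in WT + EV. They were 0.991, 0.909 and 0.782 in Δdbp7 + Dbp7DQGD, against 0.893, 0.550 and 0.578 in Δdbp7 + Dbp7WT. The empty-plasmid strains did not overlap, the plasmid strains did, and 6 of 6 pairs had the higher ratio without active Dbp7. The nucleotides on either side, 1654 and 1656, had log2 folds of -0.10 and 0.13 (adjusted p = 0.478 and 0.409, edgeR).

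**Figure D3:**
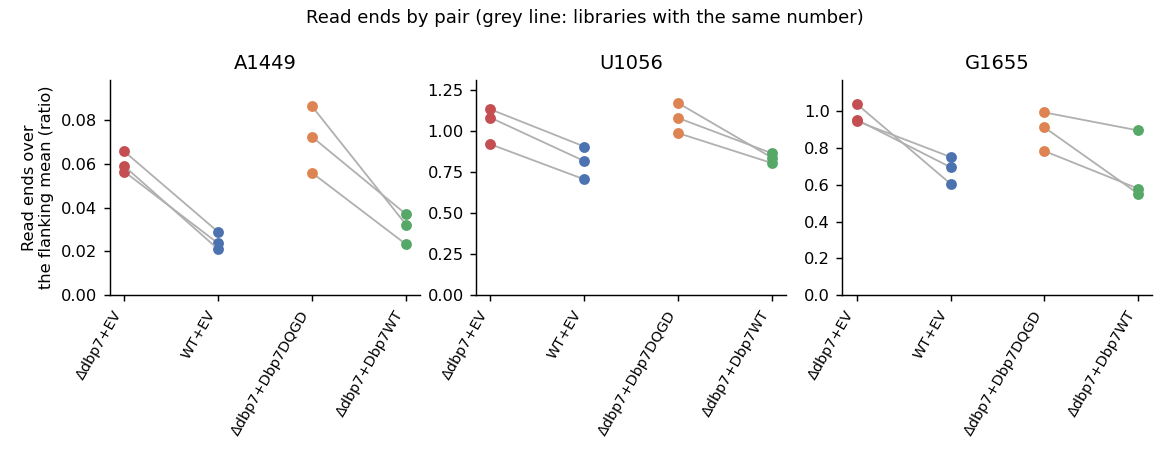
Read ends over the flanking mean at the 3 nucleotides called with the pairs as blocks, with grey lines joining libraries of the same number. At U1056 all libraries without active Dbp7 lie at 0.918 or above and those with it at 0.904 or below, and at each nucleotide all 6 lines fall towards the strain with active Dbp7.

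The calls at single nucleotides were sensitive to the pairs included. Without the empty-plasmid pair 1, only A1449 was called (adjusted p = 0.0411), without pair 2 the region had 13 calls (11 higher and 2 lower, 1.49% of its nucleotides, against 2.11% of all 5172), without pair 3 the same number as with all pairs, 3, and without any of the plasmid pairs it had none. When a plasmid pair was left out, the adjusted p was 0.0574 to 0.0801 at A1449, 0.0818 to 0.113 at U1056 and 0.0801 to 0.325 at G1655 (edgeR), with log2 folds of 1.21 to 1.32, 0.34 to 0.39 and 0.41 to 0.55.

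The other 866 nucleotides of the region carry no listed methylation, and their scores describe the background of the method. The median of their mean scores over the 12 libraries was 0.0686 and the 95th percentile 0.360. Medians were 0.0773 for nucleotides 1001 to 1132, 0.0782 for 1134 to 1436, 0.0270 for the 11 nucleotides between C1437 and A1449, and 0.0638 for 1451 to 1870. In the 25S rRNA outside the region the median was 0.0653. The longest stretch without methylation therefore had a background like that of the rest, and its scores varied between libraries of a strain by a median SD of 0.0454.

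**Figure D4:**
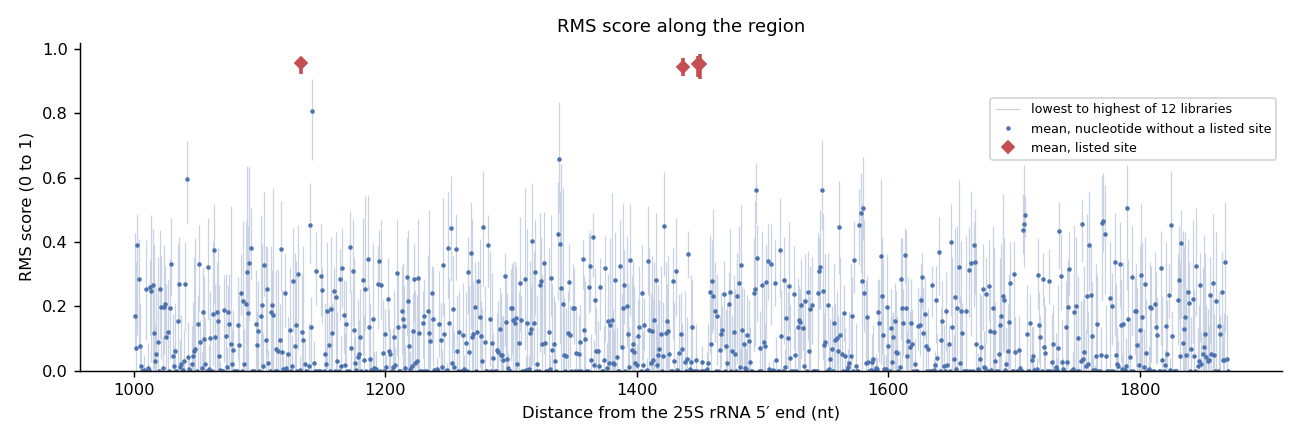
RMS score along the region. Points are means over 12 libraries, vertical lines run from the lowest to the highest library, and diamonds mark the 4 listed sites (A1449 and G1450 coincide at this scale). The highest point outside the list is G1142, with a mean of 0.807.

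The background followed the base. The median number of ends over the flanking mean was 0.817 at guanosines, 0.916 at adenosines, 1.09 at cytidines and 1.09 at uridines, so the median of the mean scores was 0.185 at guanosines and 0.0220 at uridines. The region is made up of 26.4% A, 20.8% C, 28.9% G and 23.9% U. The 5 nucleotides with the most ends over the flanking mean were all uridines, U1455, U1564, U1322, U1058 and U1288, with means of 1.91, 1.82, 1.80, 1.78 and 1.76. The flank of U1455, the highest of them, includes A1449 and G1450, which give few ends.

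Outside the list, 7 nucleotides of 866 (0.808%) had a mean score above 0.5, against 38 of 2493 (1.52%) in the 25S rRNA outside the region. The 5 highest were G1142 (0.807), C1338 (0.658), U1042 (0.595), U1495 (0.564) and G1547 (0.562), followed by A1580 (0.507). G1142 was the only nucleotide outside the list with a score above 0.5 in all 12 libraries. U1042 is another known pseudouridine, a modification that does not block alkaline hydrolysis. The surroundings of C1338 and U1042 are printed to show these next positions, in capitals.
25S 1324-1352: uuaccuauacucuaCcgucaggguugaua
25S 1028-1056: ugaccuugaccuauUcucaaacuuuaaau

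G1142 scored 0.761, 0.790 and 0.834 in Δdbp7 + EV, against 0.808, 0.904 and 0.859 in WT + EV. It scored 0.845, 0.654 and 0.765 in Δdbp7 + Dbp7DQGD, against 0.907, 0.793 and 0.765 in Δdbp7 + Dbp7WT. The highest of these, 0.907 in Δdbp7 + Dbp7WT library 1, equals to 3 decimals the lowest score of any listed site in the region. The groups overlapped, and the score was lower without active Dbp7 in 6 of 6 pairs, in library 3 of the plasmid strains by less than 0.001. The log2 fold of read ends was 0.53 ± 0.142 with the pair as a block (SE, adjusted p = 0.230, edgeR) and 0.49 without it (adjusted p = 1.00), so G1142 was not called. It rests on 128 to 737 read ends per library, and A1133 does not lie within its flank.

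C1338 varied most among the next positions, between 0.492 and 0.835, and library 2 was the highest of each strain. It stood at 0.835 in Δdbp7 + EV and 0.799 in WT + EV, and at 0.739 in Δdbp7 + Dbp7DQGD and 0.788 in Δdbp7 + Dbp7WT. U1042 ranged between 0.458 and 0.715, U1495 between 0.459 and 0.646 and G1547 between 0.442 and 0.718, and the read ends of C1338 and U1042 were not called with the block (adjusted p = 0.360 and 0.324, edgeR).

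The amount of the region relative to the rest of the 25S rRNA was compared as its share of read ends. The region took 26.2 ± 1.53% of the 25S ends in Δdbp7 + EV and 25.7 ± 0.338% in WT + EV, and 25.8 ± 0.757% in Δdbp7 + Dbp7DQGD and 26.0 ± 0.552% in Δdbp7 + Dbp7WT (SD, n = 3 each), while it holds 25.6% of the nucleotides. Δdbp7 + EV library 2 was the highest, at 27.9%. Libraries without and with active Dbp7 differed by 0.102 percentage points (p = 0.853, two-sided exact permutation test, n = 6 each). Relative to the 18S rRNA the region was scarcer without active Dbp7, as was the 25S rRNA it belongs to. Its ends made up 0.374 ± 0.0358 of the 18S ends, against 0.546 ± 0.0237 with active Dbp7 (SD, n = 6 each), a ratio of 0.686 (p = 0.00216, the smallest that a two-sided exact permutation test of 6 against 6 can give). Both permutation tests exchanged the libraries freely and took no account of strain or pair.

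Within the region, the 17 whole windows of 50 nt each held 0.840 to 2.37% of the 25S ends as a mean of a strain. No window was called by edgeR in any comparison, with or without the pair as a block (0% of the 103 windows of both rRNAs). Without the block, 1 window of the region had an unadjusted p under 0.05, in Δdbp7 + Dbp7DQGD against WT + EV (nucleotides 1801 to 1850, log2 fold 0.30, adjusted p = 0.708, edgeR), beside 6 of all 103 windows. With the block, none had for deletion, 1 for inactivation and 2 for both combined, beside 3, 8 and 11 of all 103 windows. Limma on the log2 share also called 0. The window with the fewest ends in every strain was that of nucleotides 1301 to 1350, at 0.947 ± 0.0340% in Δdbp7 + EV and 0.840 ± 0.0446% in WT + EV, and at 0.966 ± 0.0872% in Δdbp7 + Dbp7DQGD and 0.907 ± 0.111% in Δdbp7 + Dbp7WT (SD, n = 3 each).

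With TMM scaling over both rRNAs, which keeps the deficit of the 25S rRNA in the comparison, all 17 windows were lower without active Dbp7 in the combined comparison (median log2 fold -0.19, between -0.31 and -0.06) and 8 were called, all lower. This was 47.1% of the windows, against 46.0% (23 of 50, all lower) of the windows in the rest of the 25S rRNA and 61.2% of all 103 windows (31 lower and 32 higher).

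The window of nucleotides 1301 to 1350 also had the smallest p for deletion (log2 fold 0.17 ± 0.133, SE, adjusted p = 0.924, edgeR). The window of nucleotides 1401 to 1450, which holds the 3 U24 targets, had the smallest p for inactivation (log2 fold -0.18) and for both combined (-0.12, adjusted p = 0.987, edgeR), and that of nucleotides 1451 to 1500 for Δdbp7 + Dbp7WT against WT + EV (0.19, adjusted p = 0.891, edgeR). The 50 nt that follow the window with the fewest ends had the most ends in every strain, 2.18 ± 0.519% in Δdbp7 + EV and 2.04 ± 0.231% in WT + EV, and 2.10 ± 0.288% in Δdbp7 + Dbp7DQGD and 2.37 ± 0.207% in Δdbp7 + Dbp7WT (SD, n = 3 each).

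**Figure D5:**
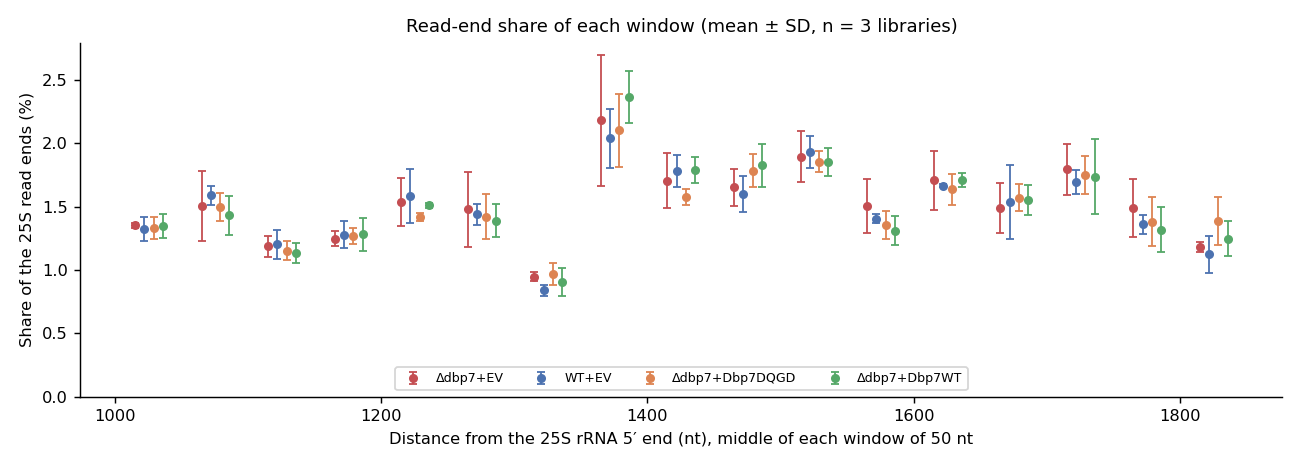
Share of the 25S read ends in each of 17 windows of 50 nt (mean ± SD, n = 3 libraries per strain). The window of nucleotides 1301 to 1350 is the lowest and the next the highest in every strain, with means between 0.840 and 2.37% of the 25S ends.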

How the data were processed

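RNA was fragmented in alkali, fragments of 20 to 40 nt were ligated to adapters and read on the Ion Proton platform. The submitters' processing notes name cutadapt 2.0 and Bowtie2 2.3.4.1. Mapping was to yeast transcripts according to the methods, and the build is not given in the sources used here. The authors deposited unnormalized counts, at each nucleotide, of reads that start there, that end there and of both together, and the fraction methylated (RMS score), 1 minus the ends over the weighted mean of 6 nucleotides on each side (weights 0.5 to 1.0), set to 0 where negative. The deposited column is headed as a percentage but runs from 0 to 1. It was recomputed from the counts with a largest difference of 5.00e-10. The authors' means and 24 other single-sample columns, which hold alternative scores, were left out.

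Scores of the 55 sites were compared with limma 3.58.1, and read ends at nucleotides (those whose flanks averaged 50 ends or more in each library) and in windows of 50 nt with edgeR 4.0.16 by quasi-likelihood, with the flanking mean or the total of the own rRNA as offset. All 12 libraries entered each fit, tests were two-sided, and p-values were adjusted (Benjamini-Hochberg) over all features. A call is an adjusted p under 0.05. DESeq2 1.42.0 in R 4.3.3 was an alternative. Libraries carry the numbers 1 to 3 in their titles, and the series' design text calls them biological triplicates. Deviations from the group means at 5172 nucleotides correlated between same-numbered libraries of Δdbp7 + EV and WT + EV (0.714, 0.402, 0.537) and of Δdbp7 + Dbp7DQGD and Δdbp7 + Dbp7WT (0.852, 0.864, 0.865). All others of these strains correlated negatively, which follows largely from the positive values because deviations within a group cancel out. The numbers were taken to pair libraries within each of these 2 pairs of strains. This pairing was read from these same data, and all calls with the pair as a block rest on it. The labels name no shared preparation. Between an empty-plasmid strain and a strain with a DBP7 plasmid, same-numbered libraries correlated at -0.202 to 0.0582. Counting errors cover counting alone, since reads carry no molecular identifiers. The fits were also run on simulated data. The changes simulated there were larger than those found here at the listed sites, and larger than those at U1056 and G1655. That run therefore does not speak to score changes of the size found, or to read-end changes like those at U1056 and G1655.

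Named nucleotides were the listed sites, up to 5 called per direction and comparison (otherwise the one with the smallest p), and the 5 outside the list with the highest mean score and with the most ends. G1658, the windows and these positions follow that rule. The region, lists and tests were chosen with earlier results of these data known. Sequences were read from the deposited tables.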

Additional observations from a re-analysis of the deposited data

Results flagged for a closer look

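Of 12 sets of 6 libraries examined for a library far from the rest, 1 stood out. Chance flags about 1 set in 20, so 1 of 12 sets is not a clear excess. At G1450 the score was 0.909 in Δdbp7 + EV library 3, the lowest of its strain, against 0.907 in the same-numbered WT + EV library 3. The WT + EV value lay well below the other libraries with active Dbp7, whose next lowest was 0.956, and is the one that stood out. In Δdbp7 + EV library 3, 111 of the 140 ends at G1450 were 3′ ends, against 173 of 202 in WT + EV library 3. In the combined comparison without a block, G1450 was called neither with this WT + EV library (difference -0.0202, adjusted p = 0.341, limma) nor without it (-0.0305, adjusted p = 0.0579, limma). With the pair as a block, leaving out library 3 of both empty-plasmid strains gave 3 of 4 sites called, beside 38.2% of all 55 sites.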

How the results depend on the processing

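Counts of calls in the region were compared over all alternatives, and 249 counts stayed within 1.5 times the main count while 36 did not. For listed sites, scores from 5′ ends alone gave 3, 2, 3 and 3 calls for deletion, inactivation, both combined and Δdbp7 + Dbp7DQGD against WT + EV, where the main count was 1 each (30.9%, 25.5%, 41.8% and 41.8% of all 55 sites). Scores from 3′ ends alone gave 0 for deletion and 0 for inactivation. Fitting only the groups compared gave 0 for inactivation and 0 for Δdbp7 + Dbp7DQGD against WT + EV, with adjusted p = 0.0908 and 0.0809 at A1449 (limma). Leaving out 1 library gave 0 to 1 calls for deletion, 0 to 1 for inactivation, 0 to 1 for Δdbp7 + Dbp7DQGD against WT + EV and 1 to 2 for both combined, the 2 arising without WT + EV library 1 (C1437, adjusted p = 0.0320, limma). For single nucleotides in the combined comparison (0 by edgeR), DESeq2 called 1, and it also called 1 for Δdbp7 + Dbp7DQGD against WT + EV. For windows, TMM scaling over both rRNAs gave 1 call for inactivation and 8 for both combined (20.4% and 61.2% of all windows), where the main count was 0. The region's calls were all lower. Of all windows called, 18 of 21 for inactivation and 32 of 63 for both combined were higher. In the rest of the 25S rRNA, 4% and 46% of the windows were called, all lower.

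With the pair as a block, 2, 2 and 3 listed sites and, in the combined comparison, 3 nucleotides were called. With the number alone as a block it was 1 nucleotide (A1449, adjusted p = 0.0419, edgeR), beside 0.0387% of all nucleotides. Leaving out 1 pair with the pair as a block, chosen after seeing the data, gave 2 to 3 sites and 0 to 13 nucleotides. The shares beside these were 29.1 to 38.2% of all listed sites and 0 to 2.11% of all nucleotides. The block changed no other call.

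For single sites and windows, 615 values kept direction and side of the threshold, 33 passed it newly, 13 no longer passed it and 3 changed sign. These 3 were A1133 for deletion from 3′ ends (0.00343), G1450 for deletion without WT + EV library 2 (0.000191, in a range over libraries left out of -0.0375 to 0.000191) and the window of nucleotides 1301 to 1350 for deletion with TMM scaling (log2 fold -0.0145). None of these was called either way, and the cause was not tested. The listed sites rest on 19 to 359 ends per library, which limits small differences.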
